A study of Mus musculus with 4 samples.

Results

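The genes described here are 19 Wnt ligand genes, 10 Frizzled (Fzd) receptor genes and the co-receptor genes Lrp5 and Lrp6 of the mouse, 31 of 21853 protein-coding genes examined. They were chosen by name, and every Smad1 peak of the 5 deposited peak lists that lay in their GENCODE M21 gene body or within 20 kb of it on mm10 was taken. Of 10466 Smad1 sites that 2 peak callers had in common with DMSO, 16 met this rule, at 13 of the 31 genes.

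The study asked where Smad1, a transcription factor of the BMP pathway, bound DNA in day 4 reaggregated embryoid bodies (EBs) when Wnt signalling was intact or inhibited. The EBs were grown from GFP-Bry mouse embryonic stem cells of the C57BL/6 strain, whose reporter marks expression of the mesoderm gene Brachyury, and were reaggregated on day 3 and kept for 24 h in DMSO or in 10 μM IWR-1, a small molecule that stabilises Axin and so lowers β-catenin. Each treatment gave 1 Smad1 chromatin immunoprecipitation (ChIP) library and 1 input library from a whole, unsorted EB population of 1 cell line, so the treatments can be set side by side only, without a test. Each library was read by the peak callers MACS and QESEQ, and a site that is missing from a list passed no threshold there, which is not a measurement of no binding.

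Labels and lists did not fully match. The common sites and the DMSO MACS list (15927 peaks) were deposited under the DMSO input, and the DMSO QESEQ list (26070 peaks) under the IWR-1 input. The IWR-1 QESEQ list (16261 peaks) was deposited under the IWR-1 ChIP, and the remaining MACS list (7815 peaks) under the label of the DMSO ChIP. The latter is called the second MACS list here, and its own name and elimination place it with IWR-1, against that label. All 10466 common sites were intervals of the DMSO QESEQ list and overlapped the DMSO MACS list. The methods of the study give similar read numbers for the 4 libraries, but how many reads lie in each peak is not part of the lists. The intervals given with shares (95%, exact Clopper-Pearson) cover counting error only.

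Wnt proteins are secreted lipid-modified ligands. In the canonical branch they bind a Frizzled receptor together with Lrp5 or Lrp6, which stops the destruction of β-catenin and lets it act with TCF/LEF factors in the nucleus, and other Frizzled complexes act on cell polarity and calcium without β-catenin. In the early embryo Wnt and BMP signals act side by side in the primitive streak, where mesoderm forms and is directed toward blood or heart.

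The sequences below are 200 bases each from 8 of the 16 common sites, on the plus strand of mm10 (GRCm38). They are the 5 sites with the highest DMSO MACS score and the 3 next ones nearest to the start of a Wnt or Frizzled gene. The first 3 sites each overlapped tRNA genes of the RefSeq annotation and had the highest scores of all 16, and capitals mark the bases of the tRNA gene on which the window is centred. These are a tRNA-Pro gene at the Wnt11 site (chr7:98815351-98815550), a tRNA-Ala gene at the Lrp5 downstream site (chr19:3576200-3576399) and a tRNA-Gly gene, on the minus strand, at the Wnt10a site (chr1:74816683-74816882).
Wnt11 site: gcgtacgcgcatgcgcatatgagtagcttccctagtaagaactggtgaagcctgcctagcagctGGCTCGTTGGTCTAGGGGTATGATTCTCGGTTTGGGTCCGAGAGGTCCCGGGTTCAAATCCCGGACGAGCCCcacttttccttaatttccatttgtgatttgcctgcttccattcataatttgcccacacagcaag
Lrp5 downstream site: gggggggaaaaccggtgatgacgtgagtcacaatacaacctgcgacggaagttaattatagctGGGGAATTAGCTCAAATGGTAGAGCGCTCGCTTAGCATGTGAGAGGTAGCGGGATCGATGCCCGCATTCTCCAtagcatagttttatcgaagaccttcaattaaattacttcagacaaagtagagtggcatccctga
Wnt10a site: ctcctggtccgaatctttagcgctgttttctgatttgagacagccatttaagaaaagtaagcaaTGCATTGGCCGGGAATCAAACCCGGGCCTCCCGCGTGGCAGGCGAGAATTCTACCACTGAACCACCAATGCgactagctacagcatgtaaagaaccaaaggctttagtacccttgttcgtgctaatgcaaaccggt

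The other 5 windows are the centres of sites without a tRNA gene, and capitals mark runs of at least 7 adenines. They show the Fzd3 upstream site (chr14:65266335-65266534), which sits at the start of the neighbouring gene Fbxo16 and has no such run in its centre, and 4 sites with long runs. The latter lie in intron 1 of Fzd3 (chr14:65255827-65256026) and upstream of Wnt4 (chr4:137273052-137273251), Wnt2b (chr3:104967237-104967436) and Fzd2 (chr11:102598546-102598745).
Fzd3 upstream site: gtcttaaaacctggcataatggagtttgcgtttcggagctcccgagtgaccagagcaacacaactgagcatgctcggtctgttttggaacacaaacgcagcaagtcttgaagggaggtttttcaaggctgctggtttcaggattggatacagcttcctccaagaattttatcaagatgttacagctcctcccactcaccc
Fzd3 intron 1 site: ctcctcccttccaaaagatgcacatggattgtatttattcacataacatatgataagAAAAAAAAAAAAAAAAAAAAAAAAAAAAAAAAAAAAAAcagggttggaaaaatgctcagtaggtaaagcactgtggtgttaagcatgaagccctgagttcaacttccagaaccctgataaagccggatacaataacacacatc
Wnt4 site: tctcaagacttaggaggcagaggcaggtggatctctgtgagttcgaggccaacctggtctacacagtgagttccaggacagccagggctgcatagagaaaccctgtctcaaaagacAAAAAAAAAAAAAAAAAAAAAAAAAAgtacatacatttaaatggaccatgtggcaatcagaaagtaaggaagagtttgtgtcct
Wnt2b site: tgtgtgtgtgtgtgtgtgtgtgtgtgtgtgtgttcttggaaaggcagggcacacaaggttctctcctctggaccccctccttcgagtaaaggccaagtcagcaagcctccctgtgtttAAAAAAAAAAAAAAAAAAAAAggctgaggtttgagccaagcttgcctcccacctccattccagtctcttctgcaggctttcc
Fzd2 site: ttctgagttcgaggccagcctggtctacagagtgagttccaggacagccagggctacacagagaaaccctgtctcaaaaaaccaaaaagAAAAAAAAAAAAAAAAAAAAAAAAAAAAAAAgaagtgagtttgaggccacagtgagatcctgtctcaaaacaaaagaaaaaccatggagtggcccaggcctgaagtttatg

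Sites common to both callers with DMSO were found at 7 of 19 Wnt genes, 4 of 10 Frizzled genes and both Lrp genes. The 13 of 31 genes make a share of 41.9% (24.5 to 60.9), and among all protein-coding genes 35.0% had such a site within 20 kb, a value inside that interval. The 16 sites lay in 2.04 Mb of sequence, or 7.83 sites per Mb, against 5.04 per Mb around all protein-coding genes and 3.84 per Mb over the chromosomes. By class the density was 5.84 per Mb for Wnt, 9.22 for Frizzled and 13.2 for the Lrp genes. These densities carry no interval, and their difference was not tested. Of the 16, 8 lay upstream of their gene, 3 in an intron and 5 beyond its end. None of the 16 had its centre within 1 kb of a start of a Wnt, Frizzled or Lrp5/6 gene. The exact interval of a count of 0 of 16 reaches 20.6%. Within 1 kb of the start of any protein-coding gene lay 2 of the 16 (12.5%, 1.55 to 38.3), those at Fbxo16 and Ppp6r3, against 9.37% of all common sites near protein-coding genes. For 13 of the 16 sites the nearest protein-coding gene was the Wnt or receptor gene itself.

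**Figure D1:**
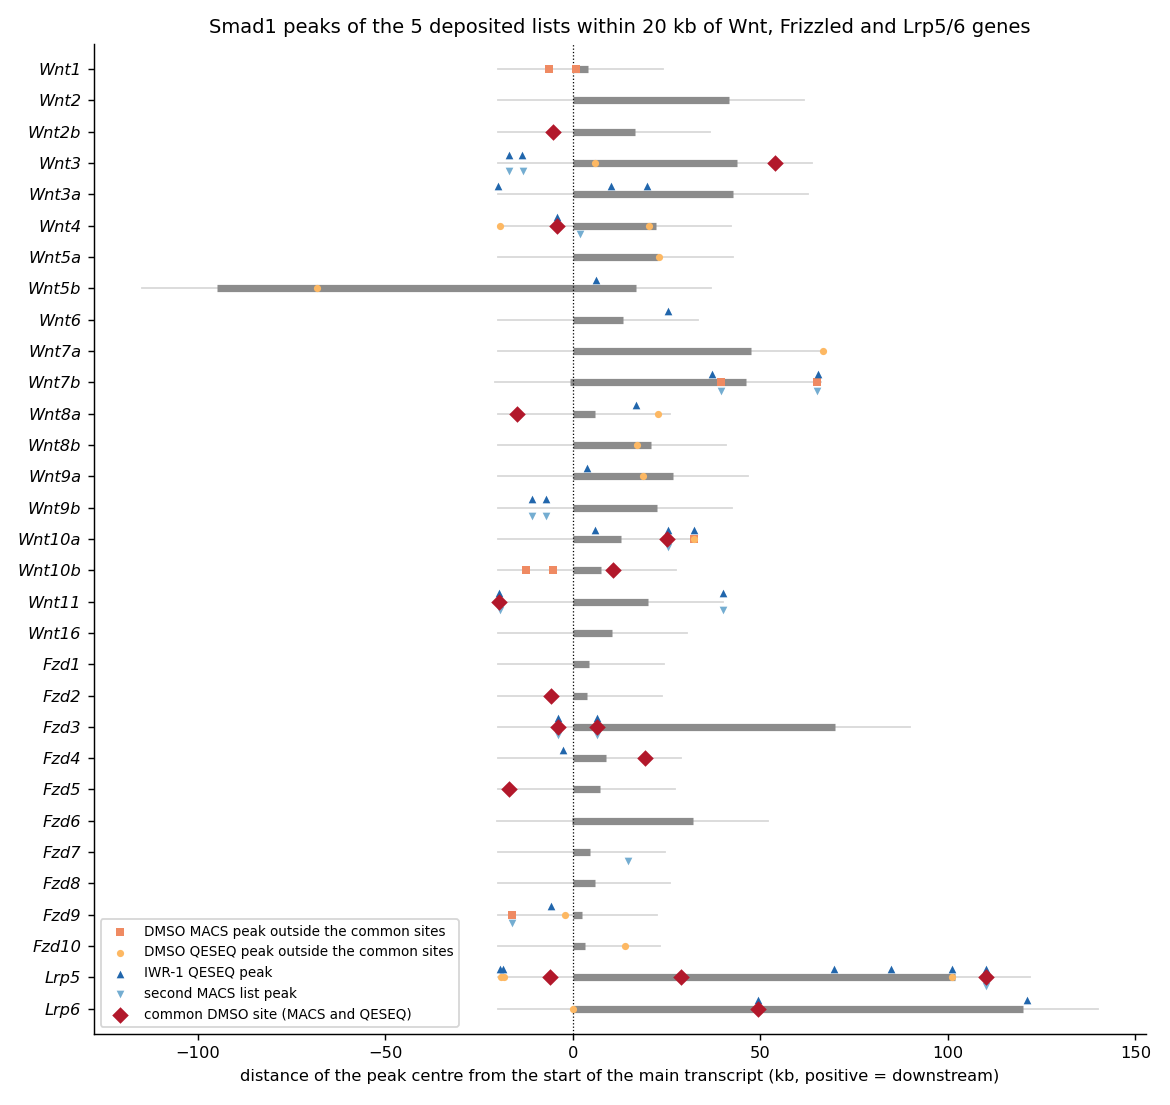
Peaks of the 5 deposited lists at the 31 genes, plotted by the distance of the peak centre from the start of the main transcript in kb, with gene bodies as dark bars and the 20 kb on either side as thin lines. The 16 common DMSO sites (diamonds) stand at 13 genes and away from the start of each, and Wnt2, Wnt16, Fzd1, Fzd6 and Fzd8 have no peak of any list.

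The ligand with the strongest site was Wnt11, which acts mainly outside the β-catenin branch and is known for its part in heart development. Its site (chr7:98815152-98815936) was centred 19.6 kb upstream of the gene, over a pair of tRNA-Pro genes, and its DMSO MACS score of 1634 stood at percentile 99.9 of the DMSO MACS list. The IWR-1 QESEQ list held the site, and so did the second MACS list, with a score of 1034 at percentile 99.7 of that list. Scores of different MACS lists depend on each library and are not compared with each other, but the site ranked near the top of both.

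Wnt10a, a ligand of tooth and skin appendage formation, had a site at a tRNA-Gly gene 25.1 kb downstream of its start (chr1:74816240-74817001). Its score with DMSO was 171, at percentile 96.1, and it was held by both the IWR-1 QESEQ list and the second MACS list (score 86.9, percentile 82.0 there). A further interval 32.3 kb downstream of the Wnt10a start (chr1:74823420-74824179) was called by MACS and QESEQ with DMSO and by QESEQ with IWR-1, yet is no entry of the common list. It was the 1 such interval at the 31 genes, of 727 in the whole DMSO QESEQ list.

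Wnt4, a ligand needed in kidney and ovary development, carried the common site closest to the start of any of the Wnt genes. It was centred 4.34 kb upstream (chr4:137272988-137273315), scored 75.1 with DMSO (percentile 68.7) and was in the IWR-1 QESEQ list but not in the second MACS list. The second MACS list instead held a peak in intron 1 of Wnt4, 1.84 kb downstream of the start (score 52.6), that no other list overlapped.

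The other 4 ligand sites were in neither the IWR-1 QESEQ list nor the second MACS list. Wnt2b had a site 5.42 kb upstream (chr3:104967088-104967585) with a score of 53.1, and the nearest IWR-1 QESEQ peak was 116 kb away. Wnt3, whose loss stops primitive streak formation, had a site beyond its end and 53.8 kb downstream of its start (chr11:103827766-103828176) with a score of 57.6. That site lay inside Nsf, the gene of a membrane fusion ATPase, and not in Wnt3.

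Wnt10b, a ligand that restrains fat cell formation, had a site 10.8 kb downstream of its start and 3126 bp beyond its end (chr15:98767160-98767586), with the lowest score of the 16, 51.8. Wnt8a, a ligand of the early primitive streak, had a site 14.9 kb upstream (chr18:34527263-34527578) with a score of 56.6. These 4 sites all stood below percentile 30 of the DMSO MACS list, from 7.77 for Wnt10b to 28.3 for Wnt3.

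Among the receptors, Fzd3, which guides axons, had 2 sites, and both were in all lists. The Wnt11 and Wnt10a sites and the Lrp5 site beyond its gene end were in all lists too. The upstream site of Fzd3 (chr14:65266222-65266646), centred 3.97 kb from the Fzd3 start, scored 113 with DMSO (percentile 92.3) and 57.3 in the second MACS list. It lay across the start of Fbxo16, which encodes an F-box protein, with its centre 184 bp upstream of that start, so the nearest promoter was not that of Fzd3. Its site in intron 1 (chr14:65255682-65256171), 6.54 kb downstream of the start, scored 95.01 (percentile 86.4) and 54.0 in the second MACS list.

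Fzd2, Fzd4 and Fzd5 each had 1 site, and none of the 3 was in the IWR-1 QESEQ list or the second MACS list. The Fzd2 site lay 5.75 kb upstream (chr11:102598450-102598840) with a score of 67.9. The Fzd4 site lay 19.2 kb downstream of the start (chr7:89423318-89423873) of this receptor of retinal vessels, which also binds Norrin, and scored 67.0. The Fzd5 site lay 17.2 kb upstream (chr1:64754568-64755262) with a score of 64.4. All 3 thus had scores close to the median of all common sites, 66.6.

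Lrp5, a co-receptor known for its role in bone mass, had 3 sites, more than any other of these genes. One lay 8110 bp beyond its end (chr19:3575953-3576718), at a tRNA-Ala gene and 586 bp upstream of the start of Ppp6r3, the gene of a regulatory subunit of protein phosphatase 6. It scored 843 with DMSO (percentile 99.3) and 505 in the second MACS list (percentile 98.0), and was in the IWR-1 QESEQ list. The others were nearer to the Lrp5 start and weaker: 1 in intron 2 (chr19:3657529-3657815, score 66.2) and 1 at 6.01 kb upstream (chr19:3692362-3692766, score 52.8), neither of them in the IWR-1 QESEQ list or the second MACS list.

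Lrp6, the partner co-receptor that is phosphorylated when Wnt binds, had a site in intron 3, 49.4 kb downstream of its start (chr6:134517255-134517698). It scored 71.3 (percentile 62.4) and was in the IWR-1 QESEQ list but not in the second MACS list.

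Of the 16 sites, 7 were in the IWR-1 QESEQ list (43.8%, 19.8 to 70.1), against 37.0% of all common sites. The second MACS list held 5 of the 16 (31.2%, 11.0 to 58.7), against 25.8%. Either list held 7 (background 44.4%), and the 2 lists together held 5 (background 18.4%). Each background value lay inside the interval of the 16 sites. By position, 3 of 8 upstream sites, 2 of 3 intron sites and 2 of 5 sites beyond the gene end were in the IWR-1 QESEQ list. These counts are small, no shares by position over all common sites are given beside them, and a difference by position was not tested.

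**Figure D2:**
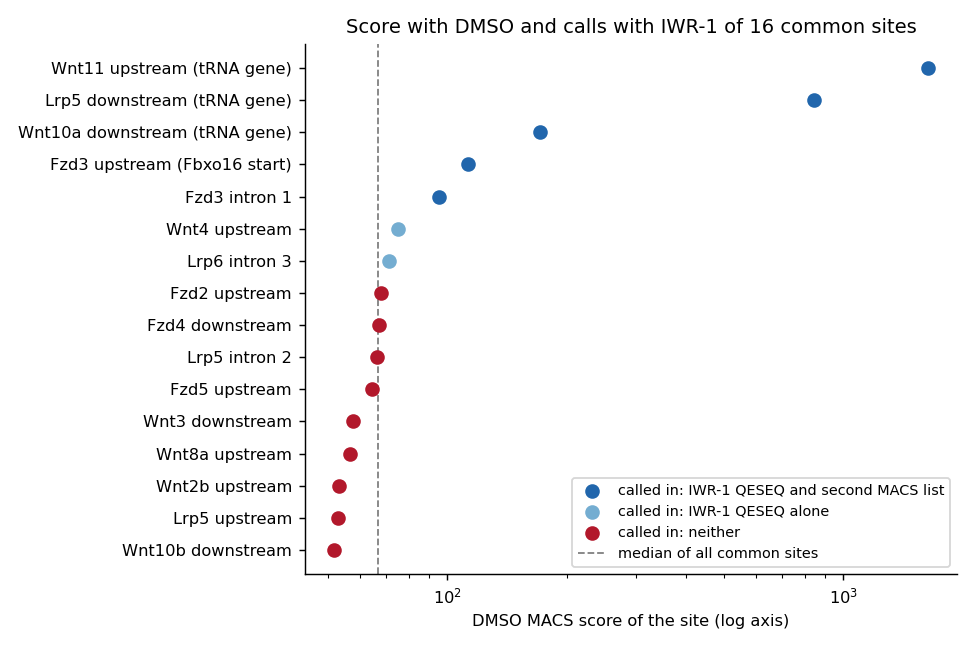
DMSO MACS score (log axis) of the 16 common sites, ordered by score and coloured by the lists that held them with IWR-1. The 7 sites in the IWR-1 QESEQ list have the 7 highest scores, from 71.3 to 1634, and the 9 sites in neither list lie between 51.8 and 67.9.

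The sites in the IWR-1 QESEQ list were those with the highest DMSO scores. Their scores ran from 71.3 to 1634 with a median of 113, and the scores of the 9 others ran from 51.8 to 67.9 with a median of 57.6, so the groups did not overlap. At a score of 70, a value set after the scores were seen, all 7 sites above it and 0 of 9 below it were in the IWR-1 QESEQ list. Over all common sites the corresponding shares were 46.4% and 30.1%, so many strong sites elsewhere were missing from that list and many weak ones were in it. The median score of the 16 sites, 67.4, was close to that of all common sites, 66.6. For the 9 sites the nearest IWR-1 QESEQ peak was 12.2 kb (Lrp5 upstream) to 116 kb (Wnt2b) away.

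The 3 sites at tRNA genes, those of Wnt11, Lrp5 and Wnt10a, were the 3 strongest. Over the genome 2.04% of common sites overlapped a tRNA gene, and 98.1% of those were in the IWR-1 QESEQ list. Without the 3 sites, 4 of 13 sites were in the IWR-1 QESEQ list (30.8%, 9.09 to 61.4), against 35.7% of all common sites away from tRNA genes. Common sites away from tRNA genes were present at 11 of the 31 genes. No such share over all protein-coding genes is given, so this count has no background. Whether the tRNA gene or the Wnt gene has to do with Smad1 at these places was not tested.

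A run of at least 7 adenines on either strand was present in 14 of the 16 sites (87.5%, 61.7 to 98.4), close to the 90.3% of all common sites, and in 11 of 32 windows of equal width placed 2 kb to either side. By length the sites fell apart. In 12 sites the longest run had 18 (Wnt8a) to 38 (Fzd3 intron 1) adenines, and in the other 4 it had 5 to 8. The latter were the 4 sites with the highest scores, those at tRNA genes and the Fzd3 site at the start of Fbxo16. Their scores were at least 113, and the highest score among the 12 was that of Fzd3 intron 1, 95.01. Scores by run length over all common sites are not given beside this, so it describes these 16 sites only.

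The IWR-1 QESEQ list held 3 of the 12 sites with a run of at least 10 adenines, namely those of Wnt4, Fzd3 intron 1 and Lrp6, and all 4 sites with shorter runs. Over all common sites the shares were 36.1% and 43.2%. How the runs bear on alignment or on the immunoprecipitation was not tested.

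**Figure D3:**
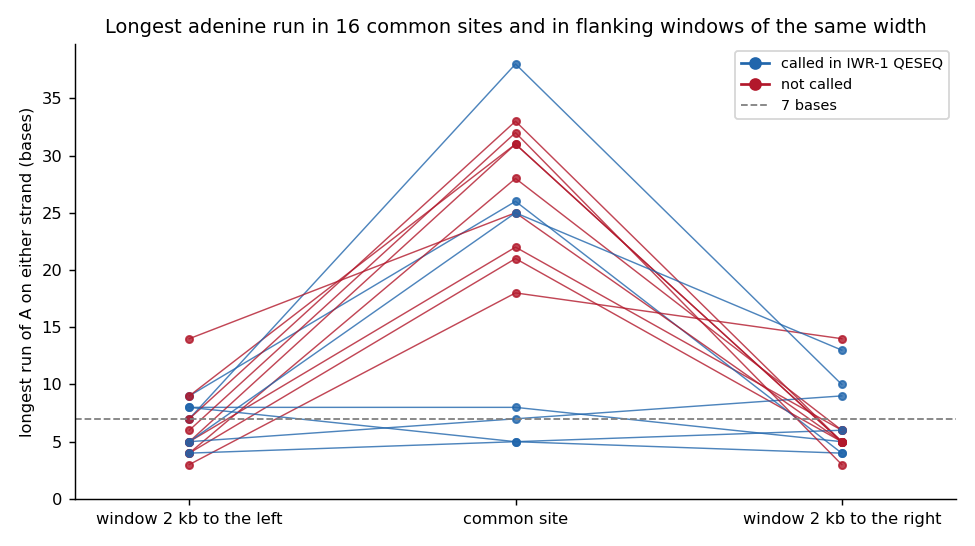
Longest run of adenines on either strand, in bases, in each of the 16 common sites and in windows of the same width 2 kb to its left and right, with 1 line per site. In 12 sites the run is longer than in both windows and spans 18 to 38 bases, and in the 4 sites at tRNA genes or at the Fbxo16 start it spans 5 to 8.

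Near the adenine runs, several sites held parts of one repeated sequence. The Wnt4 and Fzd2 sites shared this stretch of 25 bases, shown because it recurs among the common sites.
Stretch shared by the Wnt4 and Fzd2 sites: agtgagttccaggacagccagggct
It was in 3 of the 16 sites, in 9.04% of all common sites and in 1.61% of the windows 2 kb away. The letters belong to the mouse B1 family, a short interspersed repeat that ends in an adenine-rich tail. This stretch was singled out after the sequences were compared.

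Of the 7 motifs searched on both strands over the whole sites, GGAGCC and CAGACA were the most frequent. GGAGCC, a GC-rich element that BMP-activated Smads can bind, was in 5 of 16 sites (Wnt2b, Wnt3, Wnt10a, Fzd3 upstream and Fzd5), or 31.2% against 17.4% of all common sites, with an interval of 11.0 to 58.7 that included the latter. CAGACA, the short Smad element, was in 7 of 16 (43.8%, 19.8 to 70.1) and in 3350 of the 10466 common sites. In the 32 windows 2 kb to either side of the 16 sites, GGAGCC was in 21.9% and CAGACA in 34.4%, inside these intervals. Over all common sites neither motif was more frequent than in such windows, of which 18.7% held GGAGCC and 35.0% held CAGACA. The related GC-rich motif GGCGCC was in 1 site, that of Wnt11, and in 2.66% of all common sites (windows 1.96%). The palindrome GTCTAGAC was in 0 of 16 and in 0.411% of all common sites (windows 0.244%). The letters of TCF/LEF elements were in 1 site each, with CTTTGAT at Fzd5 alone (all common sites 7.47%) and CTTTGTT at Wnt11 alone (11.9%). AGATAA, the letters of a GATA element, was in 2 sites, Fzd3 upstream and Fzd4 (21.1%). The Wnt4, Wnt10b, Fzd2, Fzd3 intron 1 and Lrp6 sites held none of the 7 motifs.

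Of the 18 genes without a common site, 9 had a DMSO peak of a single caller or of callers that did not overlap, 4 had peaks in the IWR-1 QESEQ list or the second MACS list alone, and 5 had no peak at all. The last 5 were Wnt2, Wnt16, Fzd1, Fzd6 and Fzd8. In all, 26 of 31 genes had a peak of some list within 20 kb, against 71.7% of all protein-coding genes. The DMSO MACS list had peaks at 16 of the 31 genes (background 44.2%), the DMSO QESEQ list at 20 (60.2%), the IWR-1 QESEQ list at 16 (47.1%) and the second MACS list at 10 (26.8%).

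The peak nearest to the start of any of these genes belonged to Lrp6. QESEQ called it with DMSO (chr6:134566720-134567013), across the upstream flank and the first exon (5′ UTR), with its centre 47 bp downstream of the start. It held 3 copies of GGCGCC and no adenine run over 4 bases, and neither MACS list nor the IWR-1 QESEQ list overlapped it. Wnt1, a midbrain ligand, had a MACS peak in intron 1 with DMSO, 754 bp downstream of its start (chr15:98790370-98790853, score 104), that no other list overlapped and that also lay 12.5 kb upstream of Wnt10b. Another DMSO MACS peak lay 6.40 kb upstream of Wnt1 and 5.30 kb upstream of Wnt10b (chr15:98783351-98783560, score 67.3), also in no other list.

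MACS alone called 2 strong peaks in both of its lists. One was in intron 3 of Wnt7b, a ligand of lung and brain vessel development (chr15:85541972-85542454), with a score of 110 with DMSO (percentile 91.5) and 92.9 in the second MACS list. The other lay 16.3 kb upstream of Fzd9 (chr5:135267191-135267903), with scores of 99.8 and 69.5. No QESEQ list overlapped either peak, and their longest adenine runs were 4 and 3 bases. Another Wnt7b peak lay beyond the gene end, 65.2 kb downstream of its start (chr15:85516108-85516625, score 53.1 with DMSO). The second MACS list (score 59.6) and the IWR-1 QESEQ list also held it, and the DMSO QESEQ list did not. Its longest adenine run was 31 bases.

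QESEQ alone called peaks with DMSO at several of the genes. These lay in intron 1 of Wnt3 (5.97 kb from the start) and of Wnt9a (18.7 kb), at the last exon of Wnt5a (22.8 kb) and in Wnt8b across exon 4 (17.2 kb). Further peaks lay in exon 5 (3′ UTR) of Wnt4 and, upstream of the main start, in the gene body of Wnt5b. Others lay outside the gene, near Wnt4, Wnt7a, Wnt8a, Fzd9 and Fzd10. At Lrp5, QESEQ called 3 intervals with both treatments that no MACS list held, 1 in intron 22 (chr19:3585293-3585686) and 2 at 18.5 and 19.2 kb upstream. Of 22 DMSO MACS peaks at the 31 genes, 5 had no DMSO QESEQ partner (22.7%, 7.82 to 45.4), against 25.6% of those near all protein-coding genes. Of 32 DMSO QESEQ peaks, 15 had no DMSO MACS partner (46.9%, 29.1 to 65.3), against 58.1%.

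Peaks of the IWR-1 QESEQ list that no DMSO list overlapped were found at 14 of the 31 genes (45.2%, 27.3 to 64.0), and at 29.8% of all protein-coding genes, which lies inside that interval. The 14 genes shared 15 peaks, since some peaks fell within 20 kb of 2 neighbouring genes. By role they were 10 of 19 Wnt genes, 2 of 10 Frizzled genes and both Lrp genes. In 10 of the 15 peaks an adenine run of at least 7 bases was present, and over all 15 the longest runs spanned 3 to 24 bases. The share over all IWR-1 QESEQ peaks without a DMSO peak is not given, so this count has no background.

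The second MACS list also held 3 of the 15 peaks, at Wnt3, Wnt9b and Wnt11, or 3 of 31 genes against 4.54% of all protein-coding genes. Both peaks between the neighbouring ligand genes Wnt9b and Wnt3 were of this kind. One lay 7.20 kb upstream of Wnt9b and 17.1 kb upstream of Wnt3 (chr11:103756837-103757212), with a score of 53.8 in the second MACS list. The other lay 10.8 kb upstream of Wnt9b and 13.5 kb upstream of Wnt3 (chr11:103760452-103760823), with a score of 55.1. The nearest DMSO peak was 22615 and 19004 bp away. The third was 39.9 kb downstream of the Wnt11 start (chr7:98874918-98875208, score 55.7), and its nearest protein-coding gene was Uvrag. All 3 scores were low in their list, at percentiles 19.7, 25.2 and 27.6.

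Wnt3a, the ligand that keeps paraxial mesoderm forming, had no DMSO peak and 3 IWR-1 QESEQ peaks, in intron 2, in intron 1 and 19.9 kb upstream, of which the last also lay in intron 1 of Wnt9a. A peak 2.67 kb upstream of Fzd4 (chr7:89401449-89401912) was the one nearest to a start of these genes, but its nearest protein-coding gene was Tmem135. The others lay in intron 2 of Wnt10a and downstream of Wnt6 (1 peak for both genes), in Wnt5b intron 3, in Wnt7b intron 2, downstream of Wnt8a and Lrp6, upstream of Fzd9, and in introns 9 and 16 of Lrp5. None of these was in the second MACS list, and the nearest protein-coding gene of the Wnt8a peak was Nme5. Fzd7, a main Frizzled of early embryonic cells, had a single peak in all, 14.6 kb downstream of its start in the second MACS list (score 73.5).

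**Figure D4:**
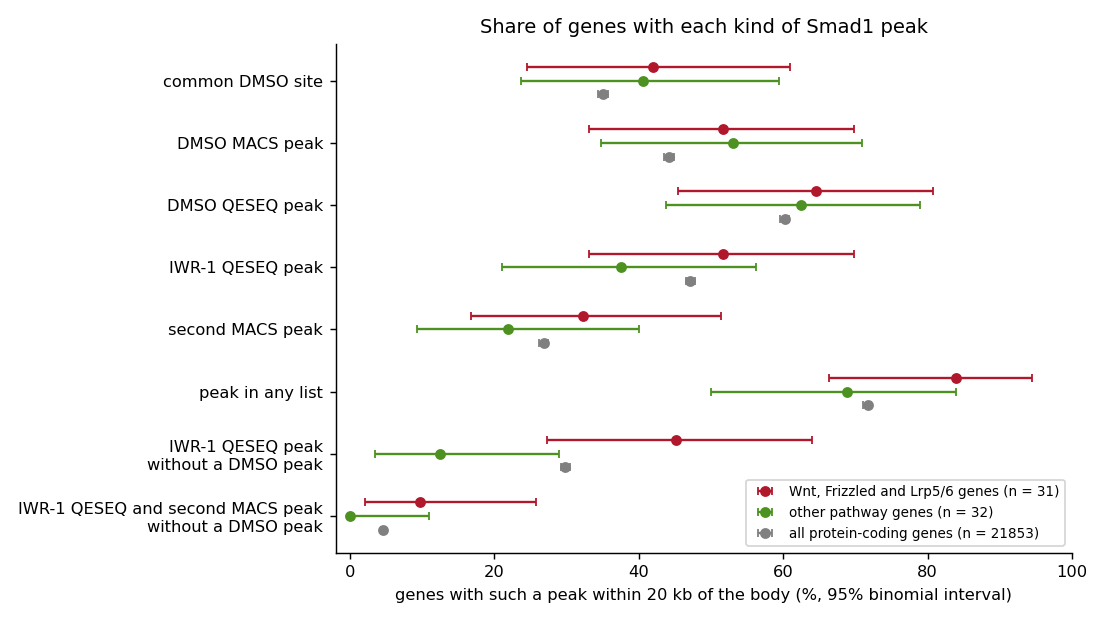
Percent of genes with each kind of peak within 20 kb of the gene body, with 95% binomial intervals, for the 31 Wnt, Frizzled and Lrp5/6 genes, 32 other genes of the pathway and all 21853 protein-coding genes. For each of the 8 kinds of peak the interval of the 31 genes includes the value of all protein-coding genes, with 41.9% against 35.0% for common DMSO sites.

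Overlap between the lists of each caller was partial at these genes, as elsewhere. Of 22 DMSO MACS peaks, 8 overlapped the second MACS list (36.4%, 17.2 to 59.3), and near all protein-coding genes 28.1% did. Of 32 DMSO QESEQ peaks, 11 overlapped the IWR-1 QESEQ list (34.4%, 18.6 to 53.2, all protein-coding genes 27.5%). In the other direction, 11 of 27 IWR-1 QESEQ peaks overlapped the DMSO QESEQ list (40.7%, 22.4 to 61.2, all protein-coding genes 43.8%). Of 13 peaks of the second MACS list, 8 overlapped the DMSO MACS list (61.5%, 31.6 to 86.1, all protein-coding genes 57.8%).

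A list of 32 other genes of the pathway was examined in the same way, with R-spondins and their Lgr receptors, ubiquitin ligases that remove Frizzled, secretion factors, other co-receptors, polarity genes and Dishevelleds. Of these, 13 had a common DMSO site (40.6%, 23.7 to 59.4, all protein-coding genes 35.0%), with 22 sites in all. The IWR-1 QESEQ list held 9 of the 22, and 37.0% of all common sites. The 32 genes were longer, with a median of 67.2 kb against 20.1 kb for the 31 ligand and receptor genes. They had 5.61 sites per Mb, against 7.83 for the 31. Lgr5, an R-spondin receptor, and Prickle2, a polarity gene, had 4 sites each, of which 2 and 0 were in the IWR-1 QESEQ list. Rnf43, a ligase that removes Frizzled from the membrane, had 2 sites and both were in that list. Peaks of the IWR-1 QESEQ list without a DMSO peak were found at 4 of the 32 genes (12.5%, 3.51 to 29.0), an interval that ends just below the 29.8% of all protein-coding genes. The count of 14 of 31 for ligands and receptors was not tested against it.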

How the data were processed

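Chromatin of day 4 EBs was sequenced for 4 libraries (Smad1 ChIP and input, DMSO and IWR-1), 1 of each kind, and 5 peak lists were analysed. The authors aligned the reads to mm10 with Bowtie2 2.1.0 after CASAVA 1.8 (versions per the submitters' processing notes), removed PCR duplicates with SAMtools rmdup, and ran MACS 1.0.1 (p cut-off 1e-05, tag size 51, bandwidth 300) and QESEQ (p cut-off 0.05) to call peaks. The deposited MACS lists give a score per peak, which starts at 50.0 and is relative to its own library and input, and the QESEQ and common lists were used for positions only. Genes, transcripts and starts came from GENCODE M21, and sequence, tRNA genes and noncoding genes from the RefSeq annotation of GRCm38.

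Peaks were assigned to a gene when they overlapped its body or the 20 kb on either side by at least 1 bp, and calls were matched by an overlap of 1 bp. Where several DMSO MACS peaks overlapped a site, the highest score was taken. Starts of positions were taken as counted from 0 in the lists and are given from 1. For the QESEQ lists, whose intervals make up the common list, this is an assumption. Every gene with a common site was named with each site, and the others with the peaks of the other lists. Printed sequences were the central 200 bases of the 5 highest-scoring sites and of the 3 next nearest to a start. At tRNA genes the window was centred on the tRNA gene instead, a choice made after the sequences were seen. Genes, lists, motifs and thresholds were chosen with earlier results of these data known. Python 3.11.15, scipy 1.17.1, pysam 0.24.0 and samtools 1.23.1 were used, and simulated intervals and sequences served to check the overlap, run and motif counts. Alternatives for window, overlap, caller and score were tried.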

Additional observations from a re-analysis of the deposited data

How the results depend on the processing

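The number of genes with a common DMSO site, 13, fell to 8 with a window of 10 kb and to 3 in gene bodies alone. It was 4 at a DMSO MACS score of at least 100, and 20 over all DMSO QESEQ peaks (all protein-coding genes 60.2%). For the window, body and score settings the share of all protein-coding genes is not given, so those counts have no background. The share of sites in the IWR-1 QESEQ list was 77.8% (7 of 9) among sites at or above the median score of all common sites. The 77.8% follows from the split of these 16 sites by score. For all common sites the share at that cut is not given, and at a score of at least 70 it was 46.4%. Genes with a peak with IWR-1 alone numbered 5 by the second MACS list and 3 where both lists overlapped (all protein-coding genes 4.54%), against 14. For the count of 5 no share over all protein-coding genes is given. Within 5 kb of a start lay 2 sites, against 0 within 1 kb. Leaving out sites at tRNA genes, a setting chosen after seeing the data, raised the share with an adenine run to 100%. In 24 other values from alternative windows, overlaps, lists and runs the change stayed within 1.5 times the count or within the counting interval. No paired analysis was possible because each treatment had 1 ChIP library, and for the same reason no library could be left out. With 16 sites the interval of a share is wide (19.8 to 70.1 for the IWR-1 QESEQ list), and the peak lists hold no reads from which the depth behind a call could be given.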
